A study of Rattus norvegicus with 66 samples.

Results

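Hippocampal transcripts of male rat pups whose dams had received the higher dose of bisphenol A (BPA5) were compared directly with those of male pups whose dams had received the higher dose of chlorpyrifos (CPF3), with no control group in the comparison. The count tables of all 7 BPA5 and all 7 CPF3 pups with an XY label entered, 14 of the 64 pups in the series (66 libraries), and both groups belong to the same library set. All were Long Evans rats on postnatal day (PND) 6. BPA5 dams ate soy-free chow that supplied 5 mg/kg bisphenol A per day from 2 weeks before mating until PND 6, whereas CPF3 dams were injected subcutaneously with 3 mg/kg chlorpyrifos per day on gestational days 2 to 20 and again on PND 2 to 6. Chemical, dose and route therefore differ together between the groups and cannot be told apart. Set beside them were XX pups of the same treatments (4 BPA5, 4 CPF3) and XY pups of the lower doses. Of these lower-dose pups, 4 had dams fed 0.5 mg/kg bisphenol A (called BPA0.5) and 4 had dams injected with 1 mg/kg chlorpyrifos (called CPF1). XY controls without either chemical were also set beside them, 4 from feeding-control dams (CONF) and 5 from vehicle-injected dams (CONSC). Each XY pup came from a litter of its own within its group, so p-values measure the spread between litters as sampled by 1 pup each. The vehicle is saline in the labels and dimethyl sulfoxide in the study's methods.

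Bisphenol A, a building block of polycarbonate plastics, binds estrogen receptors and the estrogen-related receptor gamma, and interferes with thyroid hormone signalling. Chlorpyrifos, an organophosphate insecticide, is converted in the body to an oxon that blocks acetylcholinesterase and other serine hydrolases, including enzymes that degrade endocannabinoids. In the rat, the first postnatal week is a time when dentate granule cells are still being born, glial cells multiply and inhibitory synapses mature in the hippocampus.

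Total counts ran from 12333169 to 36676752 in BPA5 pups and from 11179635 to 27089261 in CPF3 pups, with 20011 to 22337 genes detected per pup. The label dorsal hippocampus, which here includes a small strip of adjacent neocortex, was checked on 6 genes. Prox1, the transcription factor of dentate granule cells, lay at 58.9 to 182 CPM (counts scaled to a total of 1000000 per pup), and Neurod6 and Slc17a7 of pyramidal neurons at 41.5 to 200 and 92.3 to 352 CPM. Gfap of astrocytes lay at 104 to 316 CPM, whereas Wfs1 of CA1 (3.97 to 12.6 CPM) and Zbtb20 (1.43 to 5.64 CPM) were low in every pup.

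No gene separated the chemicals past the threshold. In edgeR's quasi-likelihood test, 0 of 16118 genes (0.0%) had a Benjamini-Hochberg adjusted p under 0.05, and the smallest adjusted p was 1. At an unadjusted p under 0.05 there were 337 genes (2.09%), of which 219 (1.36%) were higher and 118 (0.732%) lower in BPA5. DESeq2 also called 0 genes, with 476 at an unadjusted p under 0.05, and limma-voom with sample quality weights called 0, with 872. Leaving out 1 pup at a time gave 0 calls each time and 232 to 770 genes at an unadjusted p under 0.05, with 770 without BPA5 pup 88-3y and 549 without CPF3 pup 45-1y. The smallest unadjusted p, 0.000496, belonged to LOC103691513, which lay at 1.56 to 2.51 CPM in BPA5 and 2.25 to 3.66 CPM in CPF3 (log2 fold change -0.68). This gene falls outside the rule for named genes and was picked after its values were seen.

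The data bound how far the groups can lie apart. For 13140 of the 16118 genes (81.5%) the 95% interval of the difference, which is per gene and not corrected for their number, stayed within 1.5-fold in either direction, and for 15630 (97.0%) it stayed within 2-fold. Half-widths of the interval had a median of 0.25 on the log2 scale. Precision followed the level of the gene. Among 2360 genes over 100 CPM the interval stayed within 1.25-fold in 83.0%, whereas among 1419 genes under 1 CPM none was bounded so closely and 15.7% stayed within 1.5-fold. A log2 fold change beyond 1 in either direction was measured for 23 genes, none of which passed.

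**Figure D1:**
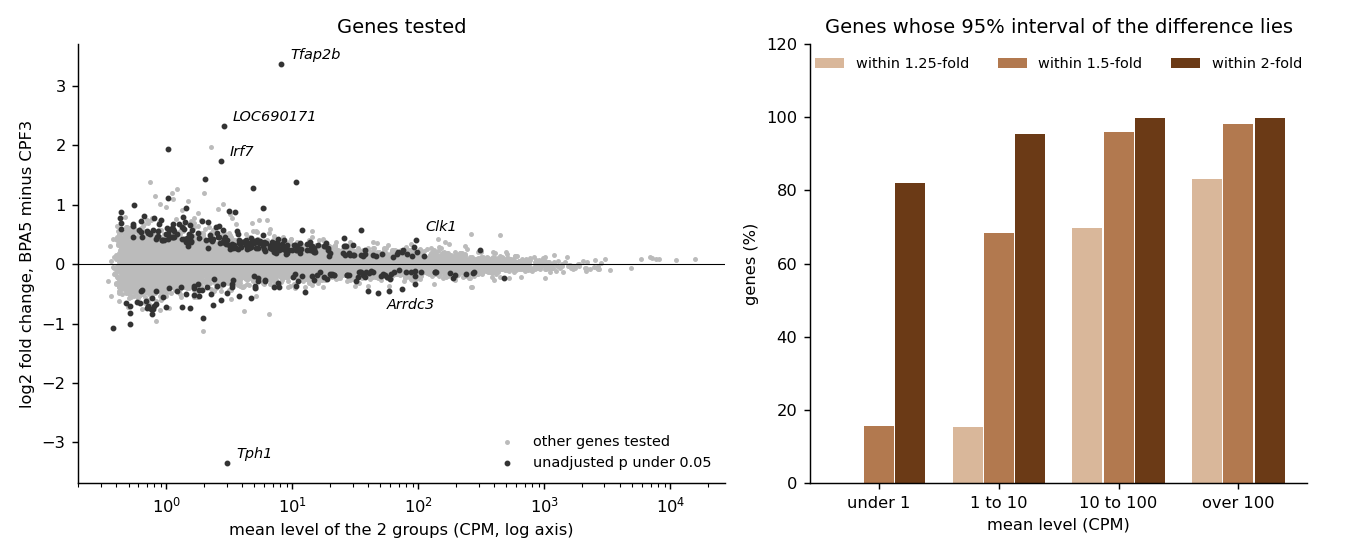
Left, the log2 fold change of BPA5 minus CPF3 against the mean level (CPM, log axis) for each of 16118 genes, with dark points at an unadjusted p under 0.05. Right, the share of genes at each level whose 95% interval lies within 1.25-fold, 1.5-fold or 2-fold of no difference; at over 100 CPM 83.0% lie within 1.25-fold, and under 1 CPM 0.0%.

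The genes of smallest p, 10 in each direction, are given as a description of the ranking, since none passed. Clk1 led those with a name. It encodes a kinase that phosphorylates serine and arginine rich splicing factors. Its level was 98.0, 106 and 121 CPM (lowest, median, highest) in BPA5 and 60.7, 85.3 and 96.4 CPM in CPF3, so every BPA5 pup lay above every CPF3 pup. The log2 fold change was 0.40 ± 0.09 (SE), or 132% of the CPF3 level with a 95% interval of 115 to 151%. Its unadjusted p was 0.000649 and its adjusted p in edgeR was 1. Leaving out any single pup kept the log2 value between 0.33 and 0.44. Groups failed to overlap with BPA5 above CPF3 for only 3 of the 16118 genes (0.0186%), Clk1, LOC102555378 and Zfp217, and with BPA5 below CPF3 for 0 (0.0%). Zfp217, a zinc finger repressor, lay at 7.35 to 9.38 CPM in BPA5 and 6.46 to 7.33 CPM in CPF3, a gap smaller than the range within either group. The last, LOC102555378, had few counts, 0.538 to 1.3 CPM against 0.192 to 0.517 CPM.

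Promoters are shown for Clk1 and Arrdc3, as the genes over 30 CPM that lead in each direction in fold change among the named 20. RefSeq (build GRCr8) gave promoters, 250 bases before to 50 bases after the transcription start, for 19 of the 20. The search covered TGACGT, the core that cyclic AMP responsive factors bind, and CCAAT, the box bound by NF-Y, on both strands. Capitals mark the matches, in Clk1 TGACGT on the opposite strand and in Arrdc3 CCAAT.
Clk1, chr9:67453131-67453430, minus strand: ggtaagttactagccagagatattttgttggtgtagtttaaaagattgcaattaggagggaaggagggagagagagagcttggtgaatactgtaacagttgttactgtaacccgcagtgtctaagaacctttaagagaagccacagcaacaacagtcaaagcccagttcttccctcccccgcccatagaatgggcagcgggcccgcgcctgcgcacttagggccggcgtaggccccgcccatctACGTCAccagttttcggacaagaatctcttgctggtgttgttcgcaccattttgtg
Arrdc3, chr2:12872952-12873251, plus strand: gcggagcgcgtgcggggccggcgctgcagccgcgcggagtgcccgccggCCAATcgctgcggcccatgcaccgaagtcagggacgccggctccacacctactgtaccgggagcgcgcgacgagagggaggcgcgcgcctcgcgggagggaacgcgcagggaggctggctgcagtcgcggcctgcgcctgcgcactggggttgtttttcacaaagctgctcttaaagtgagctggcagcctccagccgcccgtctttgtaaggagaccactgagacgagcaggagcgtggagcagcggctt
The Clk1 match began 6 bases before the start, and the Arrdc3 match 201 bases before it. Of 33469 promoters of this length, 2658 (7.94%) held TGACGT and 12549 (37.5%) held CCAAT. A match describes letters in this window and was not tested for binding.

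The other genes higher in BPA5 came with overlapping groups. Lcat, which esterifies cholesterol on lipoproteins, lay at 13.0, 15.5 and 18.1 CPM in BPA5 and 9.02, 12.7 and 14.0 CPM in CPF3, with 5 of 7 BPA5 pups above all CPF3 pups (log2 fold change 0.37 ± 0.11, unadjusted p 0.00366). Ppara, the nuclear receptor that turns on fatty acid oxidation, lay at 5.97, 7.51 and 8.45 CPM against 4.95, 5.65 and 7.11 CPM (0.31 ± 0.10). Ppara is named as a member of the fasting list, not as one of the 10. Cmklr1, the receptor of the chemoattractant chemerin, lay at 1.62, 2.69 and 3.49 CPM against 0.869, 1.61 and 2.34 CPM (0.71 ± 0.21). Lgmn, a lysosomal protease abundant in microglia, lay at 74.8, 81.9 and 93.2 CPM against 59.2, 69.6 and 78.2 CPM (0.23 ± 0.07), and Cp, which encodes ceruloplasmin, a copper-carrying oxidase, at 6.81, 8.53 and 8.92 CPM against 5.16, 5.81 and 8.31 CPM (0.36 ± 0.11). The remaining 5 were Tmem129, an E3 ubiquitin ligase of the endoplasmic reticulum (0.30), Sspn, a dystrophin complex protein (0.32), MGC94891 (0.68), Wdr93 (0.52) and Cel, a lipase under 1 CPM in all 14 pups (0.87).

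Of the named genes lower in BPA5, H1f0, the linker histone of cells that have stopped dividing, had the smallest p. It lay at 74.7, 80.7 and 94.1 CPM in BPA5 and 86.3, 99.3 and 143 CPM in CPF3, with 5 of 7 BPA5 pups below all CPF3 pups and an overlap between the groups (log2 fold change -0.34 ± 0.10, unadjusted p 0.00284). A pair of arrestin family genes that restrain glucose uptake and receptor signalling lay in the same direction. Txnip lay at 46.6, 65.1 and 73.5 CPM against 60.9, 76.2 and 105 CPM (-0.42 ± 0.13), and its 3 highest CPF3 pups were at 103, 103 and 105 CPM. Arrdc3 lay at 34.3, 40.3 and 46.6 CPM against 35.2, 60.2 and 83.4 CPM (-0.49 ± 0.17), wide in CPF3 and narrow in BPA5. The others with overlapping groups were Nupl2, a nucleoporin-like protein (-0.27), Acr, the sperm protease acrosin, found here at low level (-0.60), Ccdc74a (-0.38), Amn1 (-0.21), Gstcd (-0.28) and Bend5 (-0.25). Tph1, which makes serotonin in the pineal gland and gut, had a log2 fold change of -3.35 that a single pup carried: CPF3 pup 36-3y stood at 35.7 CPM and the other 13 pups at 0.0811 to 0.763 CPM. Without that pup the log2 value was 0.01 and the unadjusted edgeR p was 0.982.

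**Figure D2:**
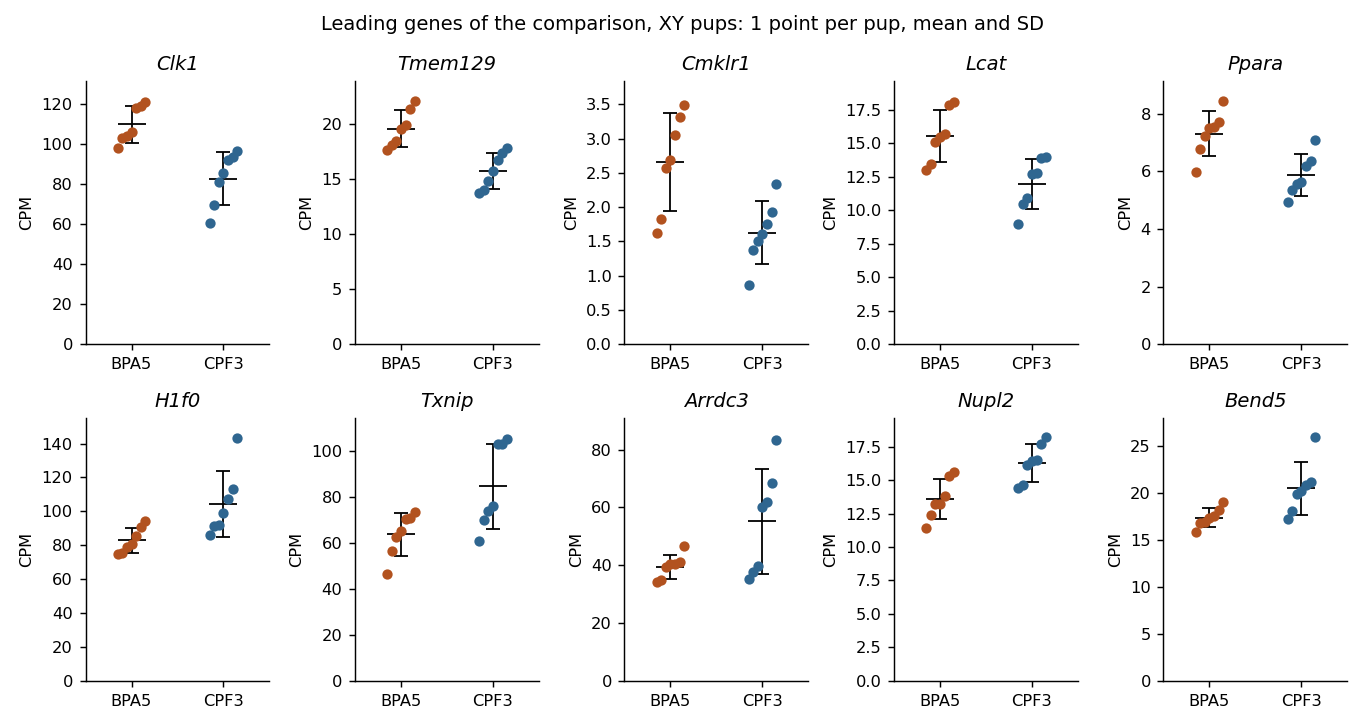
Level (CPM) of 10 genes in each of the 7 BPA5 and 7 CPF3 XY pups, 1 point per pup, with the mean and SD in black and axes that start at 0. Clk1 is the only one of these genes whose groups do not overlap.

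The same 20 genes were followed in the pups not used to rank them. In XX pups, edgeR called 0 of 15883 genes (0.0%) and 574 (3.61%) had an unadjusted p under 0.05; DESeq2 called 0, with 721. That 574 rests on few pups: it was 1481 without CPF3 pup 45-6x, 1020 without 35-3x and 324 without 43-3x, and 264 and 215 without BPA5 pups 79-4x and 85-4x. Of the 18 named genes tested in both sexes, 16 had the same sign in XX as in XY pups, and 6 of them an unadjusted p under 0.05 in XX pups. Across all 15750 genes tested in both, 61.7% had the same sign, and 265 of 322 (82.3%) did among those at an unadjusted p under 0.05 in XY. These pups are not independent of the XY pups, since 3 of the 4 BPA5 and all 4 CPF3 XX litters also gave an XY pup. Clk1 lay at 83.8 to 108 CPM in BPA5 and 49.5 to 99.1 CPM in CPF3 females (log2 fold change 0.38), H1f0 at 68.3 to 90.1 CPM against 82.9 to 121 CPM (-0.45), and Arrdc3 at 26.9 to 40.3 CPM against 25.4 to 72.0 CPM (-0.65). Txnip lay at 46.2 to 64.6 CPM against 60.1 to 224 CPM (-1.12) and Acr at 2.0 to 4.8 CPM against 2.68 to 16.7 CPM (-1.38), each with groups that overlapped in females. The medians in females were 48.4 against 79.2 CPM for Txnip and 2.38 against 4.83 CPM for Acr. In both genes the highest CPF3 value lay far above the CPF3 median, and its weight in the fold was not tested. The difference between the sexes was itself tested, and 0 of 16785 genes (0.0%) passed in edgeR, with 239 (1.42%) at an unadjusted p under 0.05; DESeq2 gave 0 and 341. The 239 became 555, 137 and 641 without CPF3 pups 35-3x, 43-3x and 45-6x.

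At the lower doses the signs were spread more evenly. BPA0.5 against CPF1 gave 0 of 15358 genes (0.0%) in edgeR and 1104 (7.19%) at an unadjusted p under 0.05, whereas DESeq2 called 11, of which 5 were higher and 6 lower in BPA0.5. Without BPA0.5 pup 72-4Y edgeR called 2, the class I histocompatibility genes RT1-N2 and RT1-T24-1. The 1104 became 3246 without BPA0.5 pup 73-4Y, 614 and 619 without 69-4Y and 72-4Y, and 734 and 595 without CPF1 pups 16-7Y and 60-6Y. Here 50.4% of all genes, 205 of 314 (65.3%) at an unadjusted p under 0.05 in XY high-dose pups, and 14 of the 18 named genes kept their sign, 1 of these 14 at an unadjusted p under 0.05. Clk1 lay at 93.5 to 112 CPM in BPA0.5 and 72.4 to 105 CPM in CPF1 (0.22), and Txnip at 58.1 to 95.2 CPM against 58.4 to 73.2 CPM (0.07). The test of the difference between dose levels passed 0 of 16505 genes (0.0%) in edgeR, with 441 (2.67%) at an unadjusted p under 0.05, and DESeq2 gave 0 and 562. The lower-dose pups were in another library set, so library set and dose cannot be told apart in this test.

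Route without chemical was read from the controls. CONF against CONSC called 2 of 15387 genes (0.013%), RragB and LOC100909655, with 152 (0.988%) at an unadjusted p under 0.05; neither call remained without the CONF pup N5-2Y, nor without any 1 of the CONSC pups 6-5Y, 8-4Y and 10-2Y. The sign was that of BPA5 against CPF3 for 49% of all 15363 genes tested in both, and for 167 of 312 (53.5%) of those at an unadjusted p under 0.05 in BPA5 against CPF3. Of the 19 named genes tested there, 12 had the sign they had in the treated pups, and 0 an unadjusted p under 0.05 in that direction. Clk1 lay at 86.4 to 122 CPM in CONF and 81.0 to 126 CPM in CONSC (0.08), and Arrdc3 at 34.1 to 75.1 CPM against 36.1 to 55.7 CPM (0.13). The difference between the treated and the control contrast passed 0 of 16507 genes (0.0%) in edgeR, with 212 (1.28%) at an unadjusted p under 0.05, and DESeq2 gave 0 and 315. Apart from 1 of the 2 summed libraries of a CONF pup, the controls were in another library set than the high-dose pups, so library set and treatment cannot be told apart here.

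The enzymes and receptors that these chemicals are known to act on were measured in the same fit. Ache, the acetylcholinesterase that chlorpyrifos oxon blocks as a protein, lay at 35.9, 59.4 and 117 CPM in BPA5 and 45.3, 49 and 96.2 CPM in CPF3, and the groups overlapped along most of their range. Its log2 fold change was 0.23 with a 95% interval of -0.25 to 0.70, and it lay between 0.03 and 0.41 with any single pup left out. Bche, the related butyrylcholinesterase, lay at 7.92 to 10.7 CPM against 7.27 to 12.8 CPM (-0.03, interval -0.28 to 0.22). For the endocannabinoid system, Mgll, the lipase of 2-arachidonoylglycerol, gave 0.13 (-0.13 to 0.38) and the receptor Cnr1 -0.14 (-0.37 to 0.10). With 1 pup left out Mgll lay between 0.07 (without CPF3 pup 43-6y) and 0.19, and Cnr1 between -0.20 and -0.08 (without BPA5 pup 81-1y or CPF3 pup 35-5y). Faah, the hydrolase of anandamide, is listed at 0 counts in all 14 pups, where 3 counts would be 0.0818 to 0.268 CPM. The genes for the ribosomal proteins Rpl8 and Rplp2, used by every cell, are listed at 0 too, so a 0 in these tables does not show that a gene was silent.

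Among the receptors for bisphenol A, Esr1, the estrogen receptor alpha, lay at 4.04, 5.89 and 8.97 CPM in BPA5 and 3.40, 6.17 and 8.02 CPM in CPF3 (log2 fold change 0.01, 95% interval -0.41 to 0.42). Esr2, the beta receptor, had 1 to 10 counts per pup and was not tested. Esrrg, the estrogen-related receptor gamma, gave 0.07 (-0.35 to 0.50), and the thyroid hormone receptors Thra and Thrb gave -0.10 (-0.32 to 0.13) and 0.04 (-0.43 to 0.51). None of these intervals reached 2-fold. Across the lists, the median log2 fold change was 0.04 for 23 tested cholinergic genes, 0.05 for 18 serine hydrolase and endocannabinoid genes, 0.06 for 19 estrogen and androgen signalling genes, -0.01 for 21 thyroid hormone genes, 0.03 for 20 xenobiotic metabolism genes and 0.02 for 20 targets of Nrf2, beside -0.0044 for all genes tested. With 1 pup left out these medians ran from 0.00 to 0.09, 0.01 to 0.08, 0.01 to 0.08, -0.04 to 0.05, 0.00 to 0.07 and 0.00 to 0.07, in the same order, and the lowest or highest came without BPA5 pups 81-1y, 88-3y or 91-6y or CPF3 pups 35-5y, 36-3y, 38-1y, 40-3y or 45-1y. No member passed, and Nefh, a neurofilament gene of the thyroid list, was the single one at an unadjusted p under 0.05. Of all genes, 1.36% were higher in BPA5 at that p. Nefh lay at 28.6, 37.9 and 76.5 CPM in BPA5 against 21.8, 23.5 and 42.5 CPM in CPF3 (0.57).

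Sox and Pou transcription factors steer neural progenitors and the choice of neuronal type. The list used here holds Sox, Pou and signalling genes of the study, so its counts are not of Sox and Pou genes alone. It was chosen by the study from contrasts of these same pups with controls, so its direction is no independent evidence. Of 19 entries tested here, 5 lay above 0 and 14 below, with a median of -0.09, 0 past the threshold, 0 at an unadjusted p under 0.05, and all 19 intervals within 2-fold. With 1 pup left out the median ran from -0.16 (without BPA5 pup 91-6y) to -0.03 (without BPA5 pup 90-2y), and the members above 0 from 1 (without BPA5 pup 81-1y) to 9 (without CPF3 pup 38-1y). Sox6, which guides interneuron and oligodendrocyte maturation, lay at 10.6, 16.3 and 23.3 CPM in BPA5 and 10.1, 17.8 and 20.5 CPM in CPF3 (log2 fold change 0.00, 95% interval -0.34 to 0.35). Sox11 gave -0.23 (-0.62 to 0.15), Pou2f2 -0.09 (-0.60 to 0.42), Pou3f2 0.11 (-0.36 to 0.59) and Gli3, a hedgehog effector, -0.02 (-0.41 to 0.37). Sox4, at 167, 219 and 257 CPM against 184, 270 and 319 CPM, had the smallest p of the list, 0.117 unadjusted in edgeR (-0.20).

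Of the interneuron genes, Pvalb, the calcium buffer of fast-spiking cells, lay at 1.86, 6.16 and 10.3 CPM in BPA5 and 0.998, 4.80 and 5.72 CPM in CPF3, with 4 of 7 BPA5 pups above all CPF3 pups. The rest of the BPA5 pups, at 1.86, 2.6 and 3.41 CPM, lay below the CPF3 median. The log2 fold change of 0.56 had an interval of -0.27 to 1.39, so a difference above 2-fold is not bounded here. It was 0.36 without BPA5 pup 86-9y and 0.81 without the 3 pups that stand apart by other genes (BPA5 79-2y and 81-1y, CPF3 36-3y). Nos1 gave -0.04 (-0.47 to 0.39), and Npy is listed at 0 counts in all 14 pups. The 3 ratios of single genes were compared by two-sided exact permutation tests over all splits of the 14 pups into 7 and 7. The chloride transporter ratio Slc12a5/Slc12a2, which climbs as inhibition matures, was 1.82, 2.99 and 5.95 in BPA5 and 1.87, 2.55 and 4.01 in CPF3 (exact p 0.375, adjusted over the 3 ratios 0.726). Pvalb/Nos1 was 0.0801, 0.276 and 0.807 against 0.043, 0.236 and 0.4 (exact p 0.484, adjusted 0.726), and Esr1/Esr2, which rests on few Esr2 counts, 14.2, 27.2 and 80.2 against 14.8, 41.0 and 74.6 (exact p 0.73, adjusted 0.73).

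**Figure D3:**
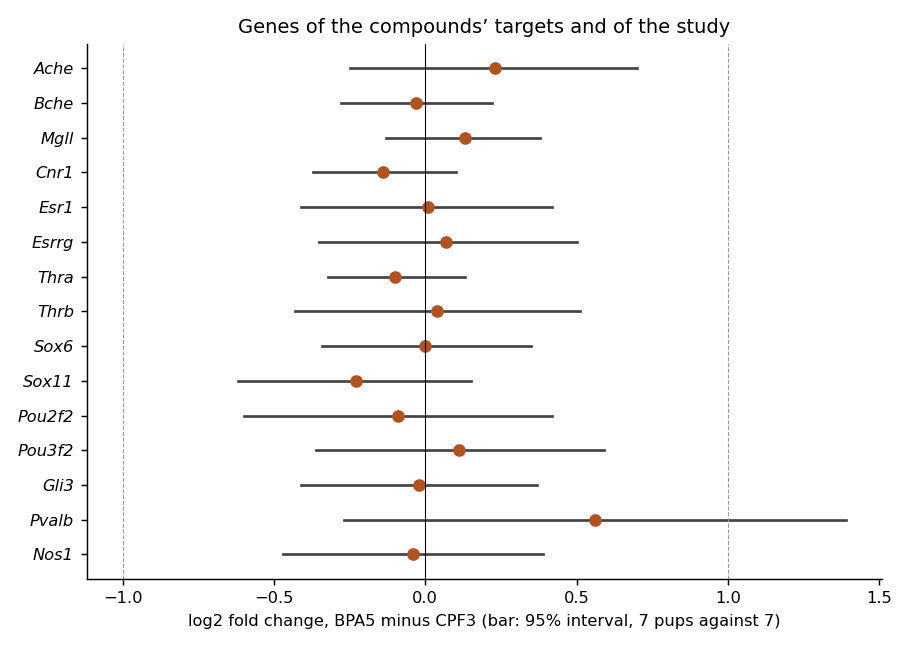
Log2 fold change (BPA5 minus CPF3, point) with its 95% interval (bar) for 15 known targets and genes that the study followed, 7 pups against 7. Dashed lines mark a 2-fold difference; all 15 intervals span 0, and only that of Pvalb reaches beyond 2-fold.

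Several marker lists lay mostly above 0, glial ones among them, without a gene that passed. All 18 microglial markers tested had a log2 fold change above 0, beside 48.2% of all genes, with a median of 0.22 beside -0.0044. Their summed level was 172, 191 and 211 CPM in BPA5 and 120, 156 and 204 CPM in CPF3, and all 7 BPA5 pups were above the CPF3 median while CPF3 pups 44-2y (202 CPM) and 45-1y (204 CPM) lay among the BPA5 pups and CPF3 pup 40-3y (172 CPM) lay level with the lowest of them. Ctss, the lysosomal protease cathepsin S, lay at 14.2, 16.1 and 17.9 CPM against 8.63, 12.9 and 17.4 CPM (0.27). Cd68, a lysosomal protein of phagocytes, lay at 3.88, 4.91 and 5.27 CPM against 2.96, 3.86 and 4.68 CPM (0.25). These 2 of the 18 had an unadjusted p under 0.05, beside 1.36% of all genes that were higher in BPA5 at that p. The unadjusted edgeR p was 0.0784 for Ctss without CPF3 pup 43-6y and 0.0989 for Cd68 without CPF3 pup 35-5y. The log2 fold change with 1 pup left out ran from 0.19 to 0.36 for Ctss and from 0.19 to 0.30 for Cd68, and these were 0.24 and 0.22 without the 3 pups that stand apart in other genes (BPA5 79-2y and 81-1y, CPF3 36-3y). Csf1r, the receptor that microglia need to survive, gave 0.25 and Cx3cr1, the fractalkine receptor, 0.22, with intervals that included 0. In bulk tissue, a larger number of cells of a type and more RNA per cell cannot be told apart. With 1 pup left out the median of the microglial list lay between 0.16 and 0.29, and without those 3 pups it was 0.15 with 17 of 18 above 0. It was 0.08 in XX pups and 0.07 at the lower doses.

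Astrocyte markers were above 0 for 17 of 18 (median 0.17, summed level 2970 to 4190 CPM against 2650 to 3810 CPM). Gjb6, the gap junction protein connexin 30, was their single member at an unadjusted p under 0.05 (1.36% of all genes were higher at that p). It lay at 3.49, 4.40 and 5.59 CPM against 2.57, 3.20 and 4.61 CPM (0.38, and 0.28 with an unadjusted edgeR p of 0.147 without the 3 pups that stand apart). Ependymal markers were above 0 for 15 of 16 (median 0.23, summed level 189 to 246 CPM against 140 to 207 CPM). They included Rsph1, a radial spoke protein of motile cilia (0.26), and Pifo (0.37). Both had an unadjusted p under 0.05, beside 1.36% of all genes that were higher in BPA5 at that p. Without the 3 pups that stand apart Rsph1 was at 0.26 and Pifo at 0.30, with unadjusted edgeR p of 0.0418 and 0.0725. Oligodendrocyte lineage markers were above 0 for 17 of 18 (median 0.14, 913 to 1620 CPM against 828 to 1260 CPM), with 0 at an unadjusted p under 0.05. Their median was 0.02 without BPA5 pup 81-1y, 0.09 without CPF3 pup 35-5y and 0.22 without CPF3 pup 44-2y, and 9 of 18 were above 0 without the 3 pups that stand apart (median 0.01). Without those 3, astrocyte markers were above 0 for 16 of 18 (0.14) and ependymal markers for 15 of 16 (0.20). In XX pups the medians of these 3 lists were 0.02, -0.03 and 0.02. At the lower doses they were 0.21, 0.20 and 0.15.

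Of 19 interferon and inflammation genes tested, all 19 were above 0 (median 0.28), and this count rested on BPA5 pup 79-2y. Without it 9 of 19 were above 0 (median -0.01), and the summed level was 516 CPM in that pup, 266 to 410 CPM in the other BPA5 pups and 208 to 460 CPM in CPF3. The median was 0.00 in XX pups and -0.04 at the lower doses. Irf7, the master regulator of interferon genes, lay at 0.801, 0.987 and 23.4 CPM in BPA5 and 0.715, 1.16 and 2.3 CPM in CPF3, and its median was the higher in CPF3: a log2 fold change of 1.73 became -0.35 without BPA5 pup 79-2y. Ccl3, a microglial chemokine, lay at 0.762, 0.973 and 1.27 CPM against 0.409, 0.756 and 1.04 CPM (0.55). The unfolded protein and amino acid response list, which holds chaperones of the endoplasmic reticulum, was above 0 for 18 of 20 genes (median 0.12, or 0.07 with 19 of 20 without BPA5 pup 81-1y). Hspa5, the chaperone that binds unfolded proteins there, lay at 287, 324 and 400 CPM against 228, 280 and 328 CPM (0.23 in XY, 0.31 in XX pups and 0.31 at the lower doses). Sdf2l1, a partner of that chaperone, lay at 4.3, 7.31 and 9.24 CPM against 4.23, 5.64 and 6.37 CPM (0.35).

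The following markers, of blood, of tissue around the hippocampus and of mitochondria, had medians that single pups moved. Erythroid markers were above 0 for 8 of 9 tested (median 0.35; summed level 593 to 1580 CPM in BPA5 and 485 to 1230 CPM in CPF3), among them the globin genes Hba1 (0.49) and Hbb (0.31). With 1 pup left out their median lay between 0.19 (without BPA5 pup 81-1y) and 0.52 (without CPF3 pup 40-3y), with 0.21 and 0.20 without CPF3 pups 35-5y and 36-3y, and without the 3 pups that stand apart it was 0.10 with 6 of 10 above 0. The erythroid median was -0.30 in XX pups, 0.31 at the lower doses and also 0.31 in CONF against CONSC, where no chemical was given. Meningeal and fibroblast markers were above 0 for 13 of 15 (median 0.16, 302 to 595 CPM against 245 to 457 CPM), with Dcn, a matrix proteoglycan of fibroblasts, at 0.26 (0.16 to 0.39 with 1 pup left out) and the defining genes Ogn and Crabp2 listed at 0 in all 14 pups. Their median was 0.03, 0.05 and 0.04, with 9 of 15 above 0 each time, without BPA5 pup 79-2y, BPA5 pup 91-6y or CPF3 pup 45-1y, and was 0.10 without CPF3 pup 40-3y and 0.25 without BPA5 pup 86-9y. It was -0.11 in XX pups and -0.17 at the lower doses. Striatal markers were above 0 for 13 of 17 (median 0.10, 569 to 1260 CPM against 735 to 1880 CPM), but 11 of the 14 pups moved that median by over 1.5 times when left out, from -0.04 with 6 of 17 above 0 without BPA5 pup 81-1y to 0.53 without CPF3 pup 45-1y, and it was -0.53 in XX pups and 0.35 at the lower doses. Choroid plexus markers were above 0 for 14 of 19 (median 0.04, 1640 to 3850 CPM against 1920 to 3250 CPM), with a median from -0.03 (9 of 19) without BPA5 pup 79-2y to 0.14 (18 of 19) without CPF3 pup 38-1y, and -0.52 in XX pups. Mitochondrially encoded genes were above 0 for 12 of 13 (median 0.07), with a median of 0.03 without BPA5 pup 86-9y or CPF3 pup 35-5y and 0.12 without CPF3 pup 38-1y, and -0.02 in XX pups. Their median was 0.40 at the lower doses and 0.14 in CONF against CONSC, where no chemical was given. Thalamic markers were above 0 for 13 of 21 (median 0.02, 721 to 1850 CPM against 589 to 2010 CPM), with a median from -0.08 without CPF3 pup 44-2y to 0.13 without BPA5 pup 79-2y or CPF3 pup 38-1y, and 0.21 in XX pups. None of these genes had an unadjusted p under 0.05, and their part in the glial values was not tested.

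Other lists lay below 0 or near it, beside 51.8% of all genes below 0, with medians that single pups moved. Immediate early genes, which respond to neuronal activity within minutes, were below 0 for 17 of 28 (median -0.06, and -0.12 to -0.01 with 1 pup left out, the ends being BPA5 pups 81-1y and 88-3y), with 2 lower at an unadjusted p under 0.05 (0.732% of all genes were), Dusp6 (27.5, 29.5 and 36.6 CPM against 28.1, 35.2 and 40.3 CPM, -0.22) and Cyr61 (1.76 to 2.60 CPM against 2.25 to 4.49 CPM, -0.37). Without CPF3 pup 36-3y Cyr61 was at -0.22 with an unadjusted edgeR p of 0.122. Dusp6 was at -0.18 (unadjusted edgeR p 0.0825) without the 3 pups that stand apart. At the lower doses Dusp6 lay in the other direction, at 0.26 (unadjusted edgeR p 0.0479). Its dose difference was -0.45 (unadjusted edgeR p 0.00225, adjusted 0.909). Fos itself gave -0.05 and Arc 0.37. Cytosolic ribosomal protein genes were below 0 for 73 of 79 (median -0.06), but for 55 of 81 without CPF3 pup 36-3y (-0.03) and 42 of 81 without the 3 pups that stand apart. Progenitor and newborn neuron genes were below 0 for 17 of 21 (median -0.09), but for 12 of 22 without CPF3 pup 36-3y (-0.04), with medians of -0.03, -0.05 and -0.14 without BPA5 pups 81-1y and 88-3y and CPF3 pup 45-1y. Without the 3 pups that stand apart, 10 of 22 were below 0 (0.03). Neocortical markers were below 0 for 14 of 20 (-0.11), with a median of -0.04 without CPF3 pup 45-1y and -0.07 without BPA5 pup 86-9y or CPF3 pup 35-5y. Splicing factors of the hnRNP and SR families were below 0 for 24 of 30 (-0.07, or -0.04 without CPF3 pup 38-1y). CA1 and CA3 markers (median 0.01 over 12 tested), dentate gyrus markers (0.01 over 10), glutamate receptors (-0.01 over 15) and glucocorticoid receptors and targets (-0.02 over 22) stayed near the median of all genes. Of the 43 lists none held a gene that passed.

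**Figure D4:**
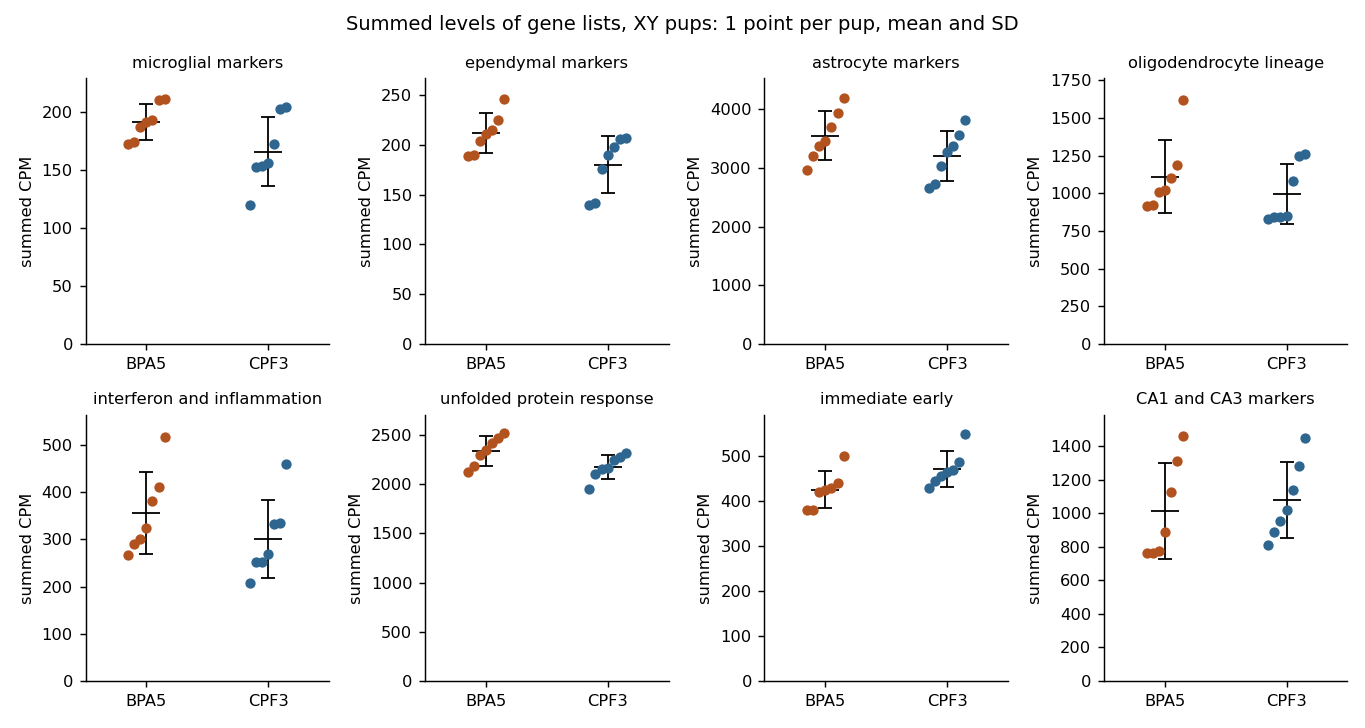
Summed level (CPM) of 8 gene lists in each XY pup, 1 point per pup, with the mean and SD in black and axes that start at 0. Groups overlap in every list; for microglial markers the 7 BPA5 pups lie at 172 to 211 CPM and the CPF3 pups at 120 to 204 CPM.

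A set of 3 pups stood apart, and the genes named for them were picked after their values were seen. Of the genes tested, 30 (0.186%) were at least 3 times as high in 1 of the 14 XY pups as in any other and had at least 20 counts there: 14 in BPA5 pup 81-1y, 13 in BPA5 pup 79-2y, 3 in CPF3 pup 36-3y and 0 in the other 11. In pup 81-1y, Tfap2b stood at 95 CPM against 0.745 to 2.99 CPM in the other 13, Ebf3 at 69.3 CPM against 2.0 to 10.7 CPM and Gata3 at 20.9 CPM against 0.154 to 3.56 CPM, all transcription factors known from the developing midbrain, hindbrain or cerebellum. Tph2 and Slc6a4, the serotonin-making enzyme and the serotonin transporter, stood at 12.3 and 47.1 CPM, where the others reached 2.08 and 24.3 CPM. The same pup was lowest of all 14 in Neurod6 (41.5 CPM, others 99.1 to 200 CPM) and Slc17a7 (92.3 CPM, others 123 to 352 CPM), while its Prox1 level (77.8 CPM) lay within the range of the others.

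Pup 79-2y was set apart by genes that type I interferon switches on. Besides Irf7 (23.4 CPM), Ifit1 stood at 12.1 CPM (others 0.511 to 2.95 CPM), Usp18 at 9.02 CPM (0.46 to 1.23 CPM) and Isg15 at 7.45 CPM (0.358 to 1.11 CPM). CPF3 pup 36-3y carried genes known from pinealocytes and photoreceptors: beside Tph1, Pde6g at 11.6 CPM (others 0.626 to 1.75 CPM), Crx at 3.92 CPM (0 to 0.334 CPM), Aanat at 2.32 CPM (0.15 to 0.666 CPM) and Asmt at 1.03 CPM (0 to 0.576 CPM), the last 2 being the enzymes that make melatonin. The largest fold in each direction came from these pups, Tfap2b at a log2 value of 3.37 and Tph1 at -3.35. Without all 3 pups, edgeR called 0 genes and 263 had an unadjusted p under 0.05, and Clk1 stood at 0.47, H1f0 at -0.27, Txnip at -0.34 and Arrdc3 at -0.49. LOC690171, picked after its values were seen, had a log2 value of 2.32 and was not among the 30 genes. It lay at 0.767, 1.35 and 16.9 CPM in BPA5 and 0.614, 0.774 and 1.48 CPM in CPF3. Its log2 value was 1.87 in XX pups and -3.03 at the lower doses.

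**Figure D5:**
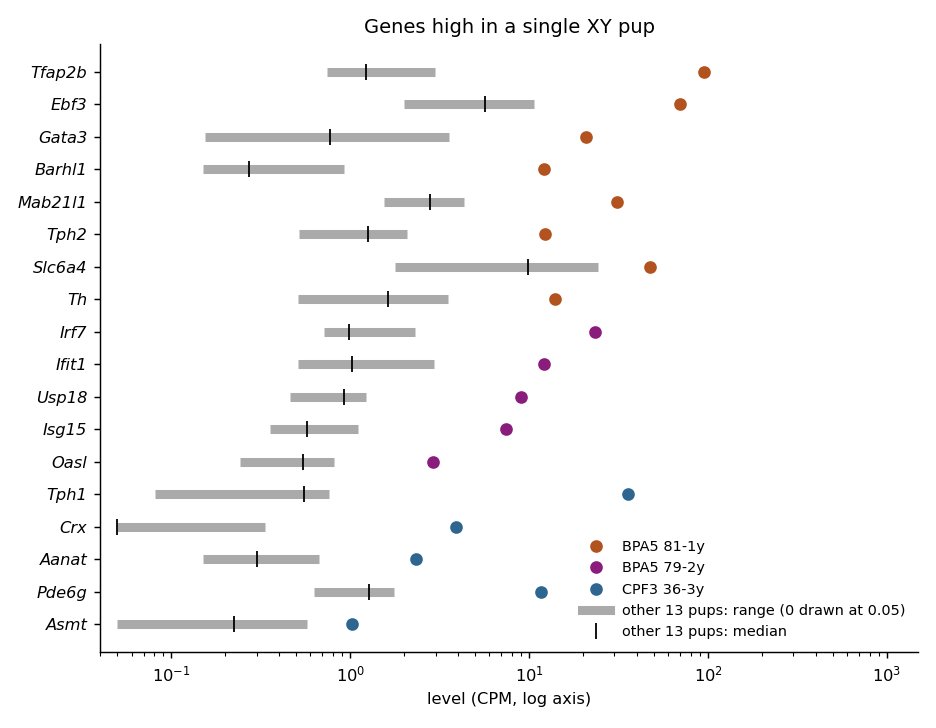
Level (CPM, log axis) of 18 genes in the single pup where they are high (point) beside the range (grey bar) and median (tick) of the other 13 XY pups, with 0 drawn at 0.05. Tfap2b in BPA5 pup 81-1y, Irf7 in BPA5 pup 79-2y and Tph1 in CPF3 pup 36-3y lie far outside the range of the others.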

How the data were processed

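The data were poly(A)-selected, strand-specific RNA-seq (TruSeq stranded mRNA) of dorsal hippocampus from 14 XY pups, 1 library per pup. The authors aligned reads to the rat build Rnor_6.0 with STAR and deposited whole-number counts per gene from featureCounts; the submitters' processing notes also name kallisto, and versions and the strand setting of the counting are not given in the sources used here, so overlapping and antisense genes are uncertain. Labels and methods differ on read length (100 and 125 bases). Levels are CPM, counts over the pup's total times 1000000. From the counts, edgeR 4.0.16 (limma 3.58.1, R 4.3.3) with TMM scaling (factors 0.988 to 1.02), filterByExpr and Benjamini-Hochberg adjustment over all genes tested fitted 7 BPA5 against 7 CPF3 pups, threshold adjusted p under 0.05, with standard errors from the log2 fold change and F; the biological coefficient of variation was 17.1%. A further 6 comparisons (XX, lower dose, controls, and the differences of contrasts) were fitted likewise, and the 2 libraries of 1 CONF pup were summed. Total counts ran from 11179635 to 36676752, and precision is given as 95% intervals. Intervals and floors of 3 counts cover counting error or the spread between pups only. The members, the 43 gene lists and the tests were chosen with earlier results of these data known.

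Named genes were those past the threshold, filled up to 10 per direction by smallest p without locus-type symbols, the 2 members of smallest p in each list of markers, responses or study genes, and a fixed set of target and study genes. Nefh, Csf1r, Cx3cr1, Fos, Arc and the genes of single pups or of groups without overlap were added after their values were seen. Alternatives were DESeq2 1.42.0, other scalings and filters, a robust fit, limma-voom, all control and high-dose males in the fit, time of dissection, and each pup left out; leaving out 3 pups together was chosen after seeing the data. BPA5 pups 79-2y and 86-9y were dissected at 10.23 and 10.02 h, before the stated window of 10.30 to 13.20 h. Scripts were tested on simulated data. Promoters are RefSeq's (GRCr8).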

Additional observations from a re-analysis of the deposited data

Results flagged for a closer look

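Within each group of 7 XY pups, the highest or lowest value was set against its nearest neighbour and the range of the group. Of 250 groups of values examined, 17 held a value far from the others. For independent, normally distributed values the rule gives about 1 in 20, or 12.5, by chance. CPM values of many genes from the same pups need not meet those conditions, so 12.5 is only a rough guide. No cause was tested for any of them.

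CPF3 pup 36-3y was highest in its group for Tph1 (35.7 CPM, next 0.729 CPM), Cyr61 (4.49 CPM, next 2.92 CPM), C1ql2, a dentate granule cell gene (3.61 CPM, next 0.907 CPM), and Ache (96.2 CPM, next 57.4 CPM), and lowest for Sox6 (10.1 CPM, next 16.2 CPM). BPA5 pup 81-1y was highest for the myelin genes Mog (3.4 CPM, next 1.94 CPM) and Mag (44.0 CPM, next 17.3 CPM), for C1ql2 (7.17 CPM, next 1.4 CPM) and for Rgs9, a striatal signalling gene (30.3 CPM, next 17.9 CPM). It was also highest for the summed level of cholinergic genes (726 CPM, next 594 CPM) and of oligodendrocyte lineage markers (1620 CPM, next 1190 CPM). BPA5 pup 79-2y was highest for Irf7 (23.4 CPM, next 1.31 CPM) and for the clock gene Bhlhe40 (18.3 CPM, next 14.6 CPM).

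CPF3 pup 44-2y was highest in its group for Irf7 (2.3 CPM, next 1.28 CPM). CPF3 pup 45-1y was highest for Rgs9 (32.6 CPM, next 17.3 CPM), for the summed striatal markers (1880 CPM, next 908 CPM) and for the summed neuropeptide genes (318 CPM, next 224 CPM).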

How the results depend on the processing

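The count of 0 genes between BPA5 and CPF3 XY pups held under all 25 alternatives, and no named gene passed in any. Of 1965 values of the 79 fitted named genes under alternatives, 59 had the opposite sign, in 15 genes; 45 of them, in 14 genes, neither started nor ended at 0.00 when rounded to 2 decimals. The cause was not tested. With DESeq2, Tph1 was 0.01 and Irf7 -0.34. With limma-voom, Esr1 was -0.12, Thrb -0.08, Pou3f2 -0.06, Dsp -0.03, Pou2f2 0.08 and Bche 0.02. Within the time window, Irf7 was -0.35, Gli3 0.13 and Esr1 -0.12. Without the 3 pups that stand apart, Irf7 was -0.37, Esr1 -0.15, Pou3f2 -0.15, Thrb -0.09 and Mag -0.01. Leaving out 1 pup at a time spanned 0 for Tph1 (-3.57 to 0.01), Irf7 (-0.35 to 1.97), C1ql2 (-0.19 to 1.78), Rgs9 (-0.04 to 0.53), Pou3f2 (-0.02 to 0.23), Pou2f2 (-0.20 to 0.09), Esrrg (-0.04 to 0.15), Bche (-0.08 to 0.05), Nos1 (-0.13 to 0.11), Thrb (-0.05 to 0.18), Gli3 (-0.12 to 0.07), Sox6 (-0.09 to 0.09), Esr1 (-0.10 to 0.10) and the log2 difference of the Esr1/Esr2 ratio (-0.40 to 0.06). Others kept their sign but moved by over 1.5 times, among them Thra (-0.15 to -0.04) and Sox11 (-0.31 to -0.13). The lower doses gave 11 calls with DESeq2 and 0 to 2 with 1 pup left out, and the controls 0 to 2. With 1 pup left out, the genes at an unadjusted p under 0.05 ranged from 122 to 267 for the controls, 173 to 390 for treated minus control contrasts and 200 to 1696 for the dose difference. With the litter as a random block in limma-voom (correlation 0.113), the sex difference had 0 calls and 331 genes at an unadjusted p under 0.05. Without a filter the main count at that p was 806. No paired analysis was possible because no litter is shared between BPA5 and CPF3, and a pup number only names a pup within its litter. Genes under 1 CPM were bounded least closely, and 82.0% of them had an interval within 2-fold.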
